A study of Mus musculus with 7 samples.

Results

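The 53 protein-coding genes of the mouse that carry a keratin symbol were examined for binding of HDAC1 in limb buds at E11.5. They were all genes of the GENCODE M21 annotation (mm10) whose symbol is Krt followed by a number, 27 on chromosome 11 and 26 on chromosome 15, out of 21938 protein-coding genes. A gene was counted as carrying a peak when a deposited HDAC1 peak covered at least 1 bp of its body with 2 kb added on each side. The symbols Krt74 and Krt8-ps were left out because the annotation lists them as pseudogenes, and neither had a peak. The hair keratin Krt85 is not among the genes, because no protein-coding gene of the annotation bore that symbol.

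HDAC1 is an enzyme that takes acetyl groups off histones. In ChIP-seq, chromatin is fixed and sheared, an antibody (here to HDAC1) pulls down its target, and the DNA that comes with it is sequenced. Fore- and hindlimb buds were taken from wild-type Swiss Webster embryos with 40 to 44 somites, and each sample is labelled as a pool over 3 litters. There were 4 HDAC1 ChIP samples, which the paper calls biological replicates, and 3 input samples of chromatin without antibody. The authors deposited a single ranked list of 15347 peaks for all 4 ChIP samples, whose lengths run from 100 to 35050 bp (median 450 bp). The deposited list gives chromosome, start and end, so it holds no value for a single sample and no replicate error or depth. The graded value used here is a peak's rank, its place in the list counted from the top. The paper's source data describe a fold change and a false discovery rate for each peak, which were not used here.

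Keratins are the intermediate filament proteins of epithelia, and a filament is built from pairs of 1 type I (acidic) and 1 type II (basic to neutral) keratin. Apart from Krt18, a type I gene at the end of the chromosome 15 cluster, mouse type I genes lie on chromosome 11 and type II genes on chromosome 15. Krt8 and Krt18 form the pair of simple, single-layered epithelia and of the early embryonic surface. Krt5 and Krt14 form the pair of the basal layer of stratified epidermis, Krt1 and Krt10 replace them in the suprabasal layers, and the hair keratins build the hair shaft. In the limb bud keratins belong to the thin surface ectoderm and its thickened apical ridge, whereas most cells of the tissue are mesenchymal. The sample is a bulk one, so fewer cells with HDAC1 at a locus and less HDAC1 per cell cannot be told apart.

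HDAC1 peaks were nearly missing from keratin genes. Of the 53 genes, 2 (3.77%) had a peak, Krt10 and Krt222, with 1 peak each, while 48.1% of all protein-coding genes had at least 1. The share was 54.2% of the protein-coding genes of chromosome 11 and 55.5% of those of chromosome 15. At promoters, taken as the 2 kb before and the 1 kb after the gene's 5′ end, none of the 53 keratin genes had a peak, against 41.6% of all protein-coding genes. Keratin genes are short, with lengths from 2.81 to 22.7 kb and a median of 6.59 kb, against a median of 17.4 kb for all protein-coding genes. Among the 12542 protein-coding genes no longer than the longest keratin gene, Krt80, 37.6% had a peak. No test was made over the genes, which are neighbours on 2 chromosomes and not replicates of each other.

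Krt10, the type I partner of Krt1 in the suprabasal epidermis, carried the higher-ranked of the 2 peaks. The peak had rank 2605, 17.0% of the way down the list, and was 400 bp long (chr11:99386050-99386449, mm10), shorter than the median peak. It lay inside the Krt10 gene (ENSMUSG00000019761.10, chr11:99385254-99389364, minus strand), 2915 to 3314 bp downstream of the gene's 5′ end and so outside its promoter. Coding sequence of exon 7 of 8 made up 220 bp of it, and the other 180 bp were intron. No promoter of another protein-coding gene touched the peak. Among the 2 annotated 5′ ends of Krt10 transcripts, however, the second, at position 99386097 of chromosome 11, belonged to a short transcript and fell inside the peak. Peaks away from every protein-coding promoter made up 19.5% of the 2605 peaks down to this rank and 37.2% of the whole list. The GC content of the Krt10 peak was 64%, close to the median of 62.9% over all peaks. It held 45 CG dinucleotides, and its observed over expected ratio of CG was 1.14, higher than in 99.4% of peaks (median 0.758). This ratio, called the CG ratio from here on, divides the number of CG by the number that the C and G content alone would give. Exon 7 encodes a part of the glycine-rich tail of the protein, and repeated glycine codons appear in the central 300 bases of the peak (chr11:99386100-99386399, minus strand, GRCm38), which hold 38 CG, shown in capitals, and 170 bases of coding sequence:
Krt10 peak centre: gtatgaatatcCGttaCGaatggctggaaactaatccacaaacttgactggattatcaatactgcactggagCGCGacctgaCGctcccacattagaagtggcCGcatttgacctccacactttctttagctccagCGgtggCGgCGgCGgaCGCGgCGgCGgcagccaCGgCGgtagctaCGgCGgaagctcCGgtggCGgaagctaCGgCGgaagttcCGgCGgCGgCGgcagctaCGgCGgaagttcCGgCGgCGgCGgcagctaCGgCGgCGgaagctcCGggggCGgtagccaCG

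A repeat such as this can be hard to place reads on, so the uniqueness of the sequence was counted. Of all stretches of 31 bases in the Krt10 peak, 91.1% occurred once in the genome, against 100% of those in the peak near Krt222. Whether the repeat had a part in the call of the Krt10 peak was not tested.

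The other peak was counted for Krt222 only through the added 2 kb. Krt222 (ENSMUSG00000035849.14, chr11:99232761-99244085, minus strand) is the outermost gene of the chromosome 11 cluster and encodes a keratin-like protein. The peak (chr11:99229950-99231249, rank 3181, 20.7% down the list) was 1300 bp long, longer than 90.1% of all peaks. It lay 1512 bp past the 3′ end of Krt222, and 0 bp of it fell within the gene. It contained the 5′ end of Smarce1, which encodes a subunit of the SWI/SNF chromatin remodelling complex and starts 1744 bp from the end of Krt222. Its GC content was 64.5% and its CG ratio 0.859, higher than in 70.4% of peaks. When peaks at promoters of other protein-coding genes were left out, Krt10 alone was left among the 53 keratin genes.

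None of the 5 simple-epithelium keratins, none of the 3 basal keratins and none of the 15 hair keratins had a peak, so the 3 classes did not differ in their count. The same held for the 4 stress or appendage keratins and the 8 inner root sheath and companion layer keratins. Krt10 was the single gene of the 13 suprabasal, mucosal and corneal keratins (7.69%), and Krt222 of the 5 remaining ones (20%). The distance from a gene's 5′ end to the nearest HDAC1 peak gave a graded value for every gene. Its median was 180.63 kb over the 53 keratin genes (25th to 75th percentile 71.048 to 265.771 kb) and 12.99 kb over all protein-coding genes. More than 100 kb separated 39 of the 53 keratin genes (73.6%) from a peak, against 25.4% of protein-coding genes. Distances of neighbouring genes are not independent, because the nearest peak of all 53 genes was 1 of the same 5 peaks.

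Among the simple-epithelium keratins the distance was shortest for Krt18, at 45.37 kb. Krt20, a keratin of gut and bladder lining, followed at 51.701 kb, and Krt8 at 69.068 kb. Krt7, expressed in ducts and glands, lay 143.994 kb from a peak and Krt19, the smallest keratin, 171.285 kb. The partner genes Krt8 and Krt18 have their 5′ ends 23.698 kb apart on chromosome 15, with no peak between them, and both had the Eif4b promoter peak (rank 938) as their nearest. Of the basal keratins, Krt14 lay 112.402 kb from a peak. Krt15 followed at 184.022 kb and Krt5 at 360.652 kb. The pair partners Krt5 and Krt14, on different chromosomes, thus had different distances and the same absence of a peak. The hair keratins ranged from 134.889 kb (Krt39) to 303.738 kb (Krt33a), with a median of 224.463 kb, and Krt31 lay at 269.399 kb. The median was 69.068 kb for the simple-epithelium and 184.022 kb for the basal keratins. The ranges of the simple-epithelium and hair keratins overlapped, since Krt7 and Krt19 were farther from a peak than Krt39, and those of basal and hair keratins overlapped as well.

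In the remaining classes, as in those above, the distance went with the place in the cluster. The stress or appendage keratins, which epidermis makes after injury and in hair follicles, split by chromosome into Krt17 (58.921 kb) and Krt16 (71.048 kb) on chromosome 11 and Krt6a (379.243 kb) and Krt6b (393.263 kb) on chromosome 15. Krt6b was the farthest of all keratin genes from a peak. The inner root sheath keratins Krt28, Krt27, Krt26 and Krt25, which lie in a row beside Krt10, were 11.147, 34.946, 48.084 and 63.099 kb from its peak. On chromosome 15 the other 4 genes of that class, Krt73, Krt72, Krt75 and Krt71, were 271.204 to 330.441 kb from a peak. Within the suprabasal, mucosal and corneal class the distances ran from 2.915 kb for Krt10 through 35.81 kb for Krt12, the corneal keratin, and 222.756 kb for Krt1, the partner of Krt10, to 255.381 kb for Krt2. Krt23, Krt42, Krt88 and Krt90, which the classes above do not hold, lay 50.079 to 295.901 kb away.

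**Figure D1:**
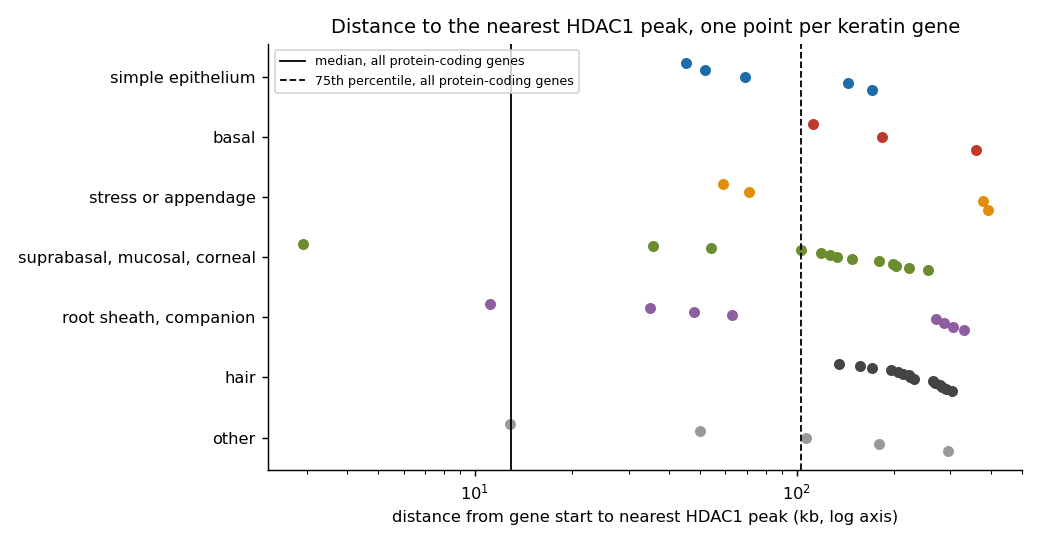
Distance in kb (log axis) from the 5′ end of each of the 53 keratin genes to the nearest HDAC1 peak, by class, with lines at the median (12.99 kb) and the 75th percentile (103 kb) of all protein-coding genes. Krt10, Krt28 and Krt222 are the 3 points left of the solid line, and all 15 hair keratins lie right of the dashed one.

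Seen along the chromosome, the keratin genes occupied long stretches without any peak. The chromosome 11 cluster, from Krt222 to Krt42 (1.04 Mb, chr11:99232761-100269871), holds 27 keratin genes, 23 genes of keratin-associated proteins, which fill the hair shaft between keratin filaments, and 68 protein-coding genes in all. It contained 1 peak, that of Krt10, or 0.964 peaks per Mb, against 10.001 per Mb over the whole of chromosome 11. The chromosome 15 cluster, from Krt80 to Krt18 (0.685 Mb, chr15:101347444-102032027), contained no peak among its 29 protein-coding genes, of which 26 are keratins by symbol. The others are Gm49425, Gm5414 and Gm5478. Chromosome 15 as a whole had 6.31 peaks per Mb. On chromosome 11 the interval between the Krt10 peak and the next one, at the promoter of the translation factor gene Eif1 (rank 7012), was 933.5 kb long and held the 5′ ends of 63 protein-coding genes, 21 of them keratins. On its other side, 154.8 kb with 6 keratin 5′ ends separated the Krt10 peak from the Smarce1 peak. The chromosome 15 interval was 806.5 kb long with 31 protein-coding 5′ ends, and was bounded by a peak of rank 11509 inside Nr4a1, an orphan nuclear receptor gene, and by the Eif4b promoter peak. Among the 15326 intervals between neighbouring peaks, whose median length was 45.95 kb, the larger chromosome 11 interval was the 501st by length and the 9th by the number of protein-coding 5′ ends. The chromosome 15 interval was the 597th by length and the 27th by that number. Of the 5 peaks that bordered these intervals, 3 thus lay at promoters of genes outside the keratin family, 1 in Nr4a1 and 1 in Krt10.

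**Figure D2:**
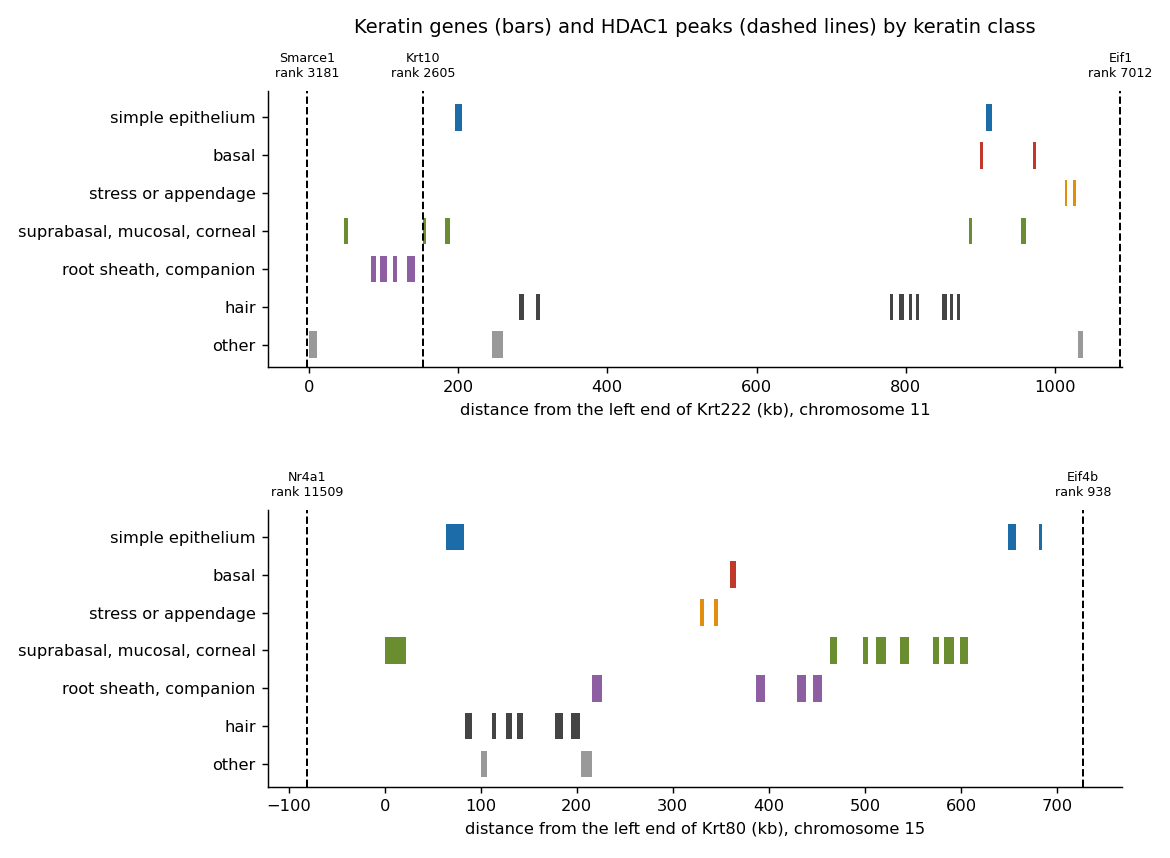
Keratin genes (coloured bars, one row per class) along the chromosome 11 and chromosome 15 clusters, in kb from the left end of Krt222 and of Krt80, with HDAC1 peaks as dashed lines labelled by gene and rank. All 5 peaks that are nearest to any keratin gene are drawn, and 1 of them, at Krt10, is inside a cluster.

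Outside the keratins, peaks were found at other members of the intermediate filament family. Genes for desmosomes and keratin linkers had shares near those of all protein-coding genes, while genes of keratin-associated proteins had none. Of 18 intermediate filament genes outside the keratin clusters, 12 (66.7%) had a peak and 11 (61.1%) had it at the promoter, beside 48.1% and 41.6% of all protein-coding genes. Vim, the filament of mesenchymal cells, had 2 peaks, the better of them at rank 4145 and 950 bp long. Synm (rank 206), the nuclear lamin gene Lmnb1 (rank 496), the neurofilament genes Nefl and Nefm (rank 669, a peak that both share) and Ina (rank 1035) had peaks of higher rank. Des, the filament of muscle, Gfap, of astrocytes, the lamin gene Lmna, Sync and the lens genes Bfsp1 and Bfsp2 had none. Of 16 genes listed for desmosomes and keratin linkers, 9 (56.2%) had a peak and 6 (37.5%) a promoter peak. The first share was somewhat above and the second somewhat below that of all protein-coding genes. The best ranks in this list were those of Pkp4 (1182), Macf1 (1227) and Dst (4511), each of which had a promoter peak. The linker Jup, on chromosome 11 like the type I keratins, had a promoter peak of 500 bp at rank 5743. Dsp, the desmosomal plaque protein that binds keratin filaments directly, had a 250 bp peak at rank 12118, outside its promoter. The desmosomal genes Pkp2, Pkp3, Dsg3, Dsc2 and Dsc3 and the linkers Ppl and Eppk1 had none. None of the 57 genes of keratin-associated proteins had a peak, with distances of 11.63 to 738.832 kb and a median of 268.762 kb.

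Limb ectoderm genes were examined because the keratins of the limb bud belong to that layer. Which of the keratin genes were expressed in these samples was not measured. Of 16 ectoderm markers, 10 (62.5%) had a peak and 5 (31.2%) had it at the promoter, beside 48.1% and 41.6% of all protein-coding genes. Wnt7a, the dorsal ectoderm signal, had a promoter peak of 1700 bp at rank 757. Tfap2a, a transcription factor of surface ectoderm and of some other tissues, had 8 peaks, the best at rank 691. Grhl2, a regulator of epithelial identity, had 2 peaks, the better at rank 4177, and a peak at its promoter. Fgf8, the signal of the apical ridge, had 1 peak of 250 bp at rank 13856. Trp63, the master regulator of stratified epithelia, had 1 peak of 150 bp at rank 13438, and the peak nearest to its 5′ end was 181 kb away. The epithelial adhesion and junction genes Cdh1, Epcam, Perp, Cldn4, Cldn6 and Cldn7 had none, as the simple and basal keratins. All 12 limb mesenchyme markers had a promoter peak. Their best ranks over the gene windows ran from 16 to 3156, with Hand2 at 16, Pdgfra at 45 and Prrx1 at 120. The adhesion and junction genes named above were all the ectoderm markers without a peak. The mesenchyme list holds no gene of that kind, so the lists differ in the kind of gene as well as in tissue. The part that the small share of ectoderm in the tissue had in the keratin counts was not tested.

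**Figure D3:**
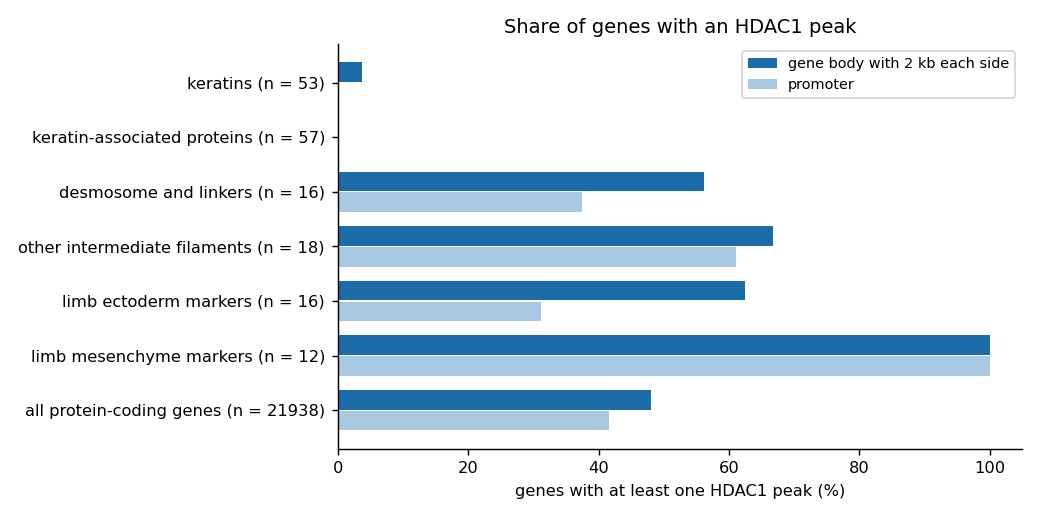
Percent of genes with at least 1 HDAC1 peak in the gene body with 2 kb on each side (dark bars) and at the promoter (light bars) for keratin genes, related gene lists and all 21938 protein-coding genes. Keratins stand at 3.77% and 0%, keratin-associated protein genes at 0%, and all genes at 48.1% and 41.6%.

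The keratin promoters had few CG dinucleotides. RefSeq promoter sequences (300 bases, from 250 before to 50 after the 5′ end, GRCm38.p6) were at hand for 36 of the 53 keratin genes and 16521 protein-coding genes in all. The median CG ratio was 0.270 for the keratin genes (range 0.0918 to 0.782) and 0.602 for all genes. The median number of CG was 5 against 14. In the 8392 of these genes without an HDAC1 peak, however, the medians were 0.272 and 5, like those of the keratin genes. Of those 8392 genes, 78% had a ratio below 0.6. A ratio below 0.6 was found in 33 of the 36 keratin promoters (91.7%) and in 49.8% of all promoters. Over all genes the peak count went with this ratio, as 20.5% of genes below 0.6 and 77.7% of genes at or above it had a peak. Of the 33 keratin genes below 0.6, 1 had a peak, Krt10, and that peak was not at its promoter. The 3 keratin genes at or above 0.6 were Krt7 (0.641, 21 CG), Krt18 (0.603, 17 CG) and Krt28 (0.782, 10 CG), and none of them had a peak. By class, the median was 0.462 for the 4 simple-epithelium promoters, 0.268 for the 2 basal ones and 0.221 for the 9 hair keratin promoters. The 2 basal promoters were those of Krt5 and Krt14. The RefSeq 5′ end of Krt14 lies 1518 bp inside the GENCODE gene, and those of Krt7, Krt8 and Krt18 are also downstream of their GENCODE 5′ ends. The 300 promoter bases of Krt14 and of Krt7 lie wholly inside the GENCODE genes. The simple-epithelium and basal medians thus rest in part on bases inside genes. Whether promoter CG content had a part in the absence of peaks at keratin genes was not tested.

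**Figure D4:**
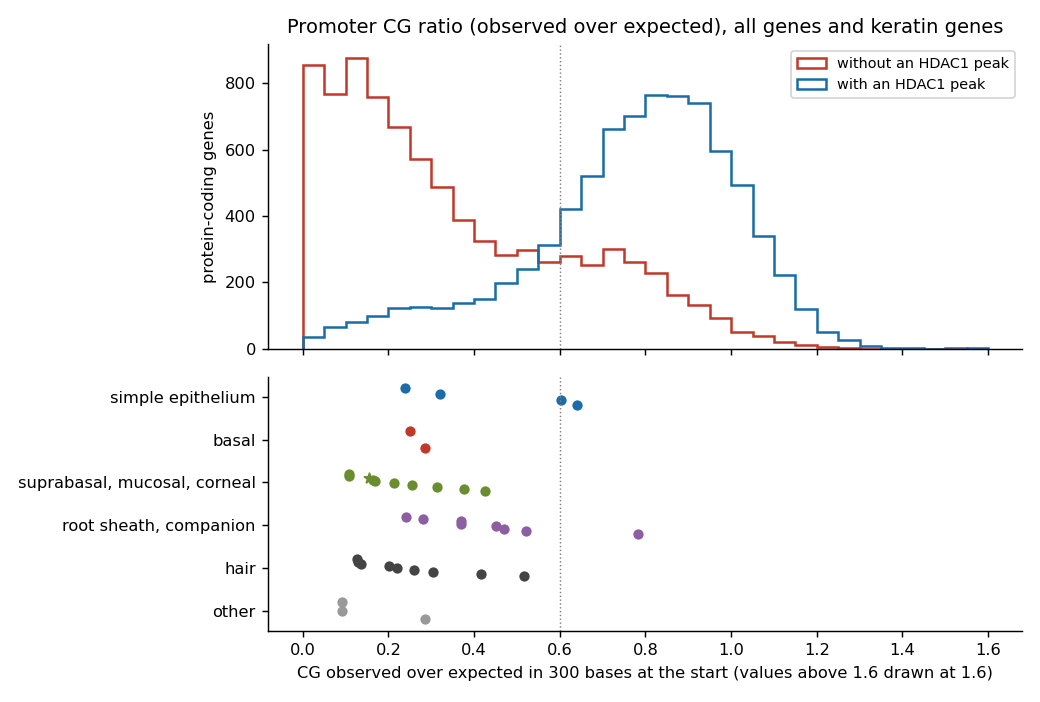
CG ratio (observed over expected CG in the 300 promoter bases) of all protein-coding genes with and without an HDAC1 peak (upper panel, number of genes per bin of 0.05) and of 36 keratin genes by class (lower panel, star for Krt10, the gene with a peak). The dotted line marks 0.6, and 33 of the 36 keratin genes lie left of it.

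The sequences just upstream of the genes are shown for members of each class that was compared. The RefSeq bases before the 5′ end, shown up to the first base of any annotated exon and with CG in capitals, are given for the simple pair Krt8 and Krt18, the basal pair Krt5 and Krt14, Krt10 and the hair keratin Krt31. The Krt8 sequence (chr15:102004483-102004592, minus strand, 110 bases) has 0 CG and the Krt18 sequence (chr15:102027966-102028179, plus strand, 214 bases) has 8. The Krt5 (chr15:101712906-101713155, minus strand), Krt14 (chr11:100206031-100206280, minus strand), Krt10 (chr11:99389365-99389614, minus strand) and Krt31 (chr11:100050552-100050801, minus strand) sequences of 250 bases have 2, 5, 2 and 1. The lengths differ, and these counts do not follow the class medians, since Krt8 has fewer CG than Krt14 or Krt31. The RefSeq 5′ end of Krt14 is 1518 bp inside the GENCODE gene, so its sequence is intronic to a longer annotated transcript.
Krt8 upstream: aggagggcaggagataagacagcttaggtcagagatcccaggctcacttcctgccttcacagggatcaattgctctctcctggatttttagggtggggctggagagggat
Krt18 upstream: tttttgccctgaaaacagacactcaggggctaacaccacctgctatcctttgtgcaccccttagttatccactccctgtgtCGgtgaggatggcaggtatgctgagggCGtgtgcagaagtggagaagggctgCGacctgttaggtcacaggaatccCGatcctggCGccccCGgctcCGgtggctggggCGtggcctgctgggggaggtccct
Krt5 upstream: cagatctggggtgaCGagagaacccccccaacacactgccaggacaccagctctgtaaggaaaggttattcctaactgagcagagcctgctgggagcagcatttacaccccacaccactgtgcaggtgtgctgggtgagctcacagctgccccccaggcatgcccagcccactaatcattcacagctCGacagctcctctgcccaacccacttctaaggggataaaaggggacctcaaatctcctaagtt
Krt14 upstream: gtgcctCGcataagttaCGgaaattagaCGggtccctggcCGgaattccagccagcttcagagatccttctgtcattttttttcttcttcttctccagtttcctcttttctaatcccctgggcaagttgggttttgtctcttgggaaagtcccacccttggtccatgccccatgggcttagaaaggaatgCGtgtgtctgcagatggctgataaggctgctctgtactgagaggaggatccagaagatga
Krt10 upstream: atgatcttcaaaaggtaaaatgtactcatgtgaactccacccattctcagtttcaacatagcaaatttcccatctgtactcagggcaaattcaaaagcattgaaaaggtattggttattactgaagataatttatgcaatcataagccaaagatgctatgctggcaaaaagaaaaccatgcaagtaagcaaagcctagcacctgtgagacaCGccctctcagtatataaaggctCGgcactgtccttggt
Krt31 upstream: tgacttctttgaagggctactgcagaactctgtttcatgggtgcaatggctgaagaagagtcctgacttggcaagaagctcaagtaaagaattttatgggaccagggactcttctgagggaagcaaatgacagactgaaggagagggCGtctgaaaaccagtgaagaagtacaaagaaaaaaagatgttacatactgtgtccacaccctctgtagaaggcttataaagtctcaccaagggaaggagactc

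Short letter motifs were counted on both strands of the 300 bases. The letters TATAAA, the core of a TATA box, were in 19 of the 36 keratin promoters (52.8%) and in 12.9% of all promoters, with 7 of 8 inner root sheath, 6 of 9 hair, 2 of 4 simple-epithelium and 0 of 2 basal promoters. The Krt14 bases among the basal promoters lie inside the GENCODE gene, as stated above. The letters GGGCGG, a GC box, were in 2 keratin promoters (5.56%), those of Krt7 and Krt75, and in 48.2% of all promoters. In the promoters of protein-coding genes without an HDAC1 peak, TATAAA stood at 19.5% and GGGCGG at 28.6%. GCCNNNGGC, read by AP-2 factors, was in 7 keratin promoters (19.4%) and in 20.3% of all. TGGGTGGTC, the letters that GLI factors prefer, was in none of the 36 and in 0.188% of all promoters. A match of letters is a description and not a binding site.

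Stretches rich in CG were also sought over the whole gene windows, which include the promoter bases. In the window of each keratin gene the 400 bp with the most CG were located, 400 bp being the length of the Krt10 peak. The number of CG there ranged from 10 to 55 with a median of 18, and was 20 or more in 19 of 53 genes. Windows of neighbouring genes overlap, so a stretch can lie in the next gene. That of Krt90, with 22 CG, had 0 bp in Krt90 and overlapped that of Krt82, also with 22. Both genes are among the 19. The stretch of Krt75, with 17 CG, lay inside the Krt90 gene. Krt10 had the most, 55, centred 3237 bp downstream of its 5′ end and overlapping its peak. Krt1, whose protein also ends in a glycine-rich tail, came next with 37, 356 bp of the 400 being coding. It had no peak. The hair keratin Krt87 had 36 and the simple keratin Krt7 had 34, both without a peak. The Krt87 stretch spans its 5′ end, with 265 of the 400 bp in the gene. That of Krt7 overlaps the RefSeq promoter counted above. The 400 bp of Krt222, with 29 CG, were those beneath the Smarce1 peak. Krt18 had 29 as well, centred 90 bp downstream of its 5′ end, and no peak. The simple-epithelium keratins Krt19, Krt8 and Krt20 had 30, 26 and 18, and the basal keratins Krt14, Krt5 and Krt15 had 19, 18 and 16.

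**Figure D5:**
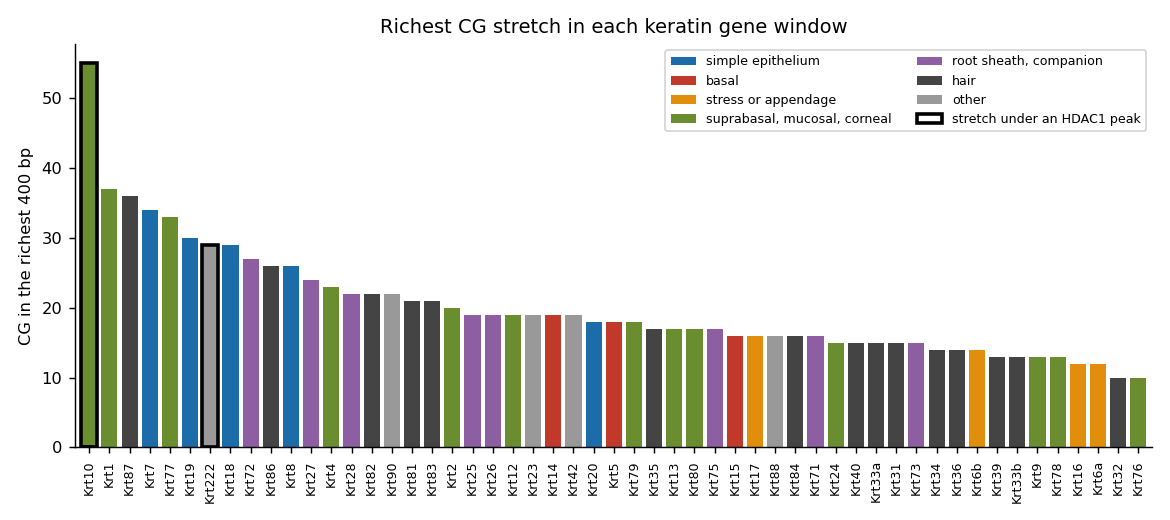
Number of CG in the richest 400 bp of each keratin gene window, in falling order and coloured by class, with a black outline where an HDAC1 peak overlaps that stretch. Krt10 stands first with 55 CG and is outlined, as is Krt222 with 29, and the genes between them have no outline.

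Keratin genes have close relatives, and reads from repeated stretches cannot always be placed. In the gene windows the share of 31-base stretches that occur once in the genome ranged from 66.3% for Krt6b to 99.8%, with a median of 95.4%. It was 75.2% for Krt16, 75.8% for Krt6a, 79.6% for Krt81 and 80.7% for Krt87, and these were the 5 lowest of the 53 genes. None of these 5 genes had a promoter sequence. In the 36 keratin promoters that had one the median was 100%, equal to that of all 16521 promoters, and the lowest value was 84.1% for Krt8. The gene windows of the simple-epithelium pair had shares of 86.8% (Krt8) and 95.6% (Krt18). A missing peak there does not show that HDAC1 was absent, only that no peak passed the authors' threshold.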

How the data were processed

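HDAC1 ChIP-seq was done on E11.5 limb buds (4 ChIP samples, 3 inputs). The authors called peaks with CisGenome on mm10. The submitters' processing notes also name Bowtie2 2.2.5, without its role. They deposited 1 list of peak coordinates (chromosome, start, end) for all ChIP samples, with no count, height or score in that file, so that the depth behind a peak is unknown here and weaker sites may be missing from it. Fold changes and false discovery rates per peak, described in the paper's source data, were not used here. Its order was taken as the rank.

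Coordinates were read as 1-based with both ends included. Genes came from GENCODE M21, promoter sequences from RefSeq (GRCm38.p6). A minimum overlap of 1 bp was used, with alternatives for the window, the list and the clusters. Counts over genes are descriptions of complete sets, with no test and no interval. Overlap calls were tested on simulated data. Every keratin gene with a peak and every simple-epithelium and basal keratin was named, and the others by class. The keratin genes, classes and lists were chosen with earlier results of these data known. Python 3.11.15, numpy 2.4.6, numba 0.67.0, pysam 0.24.0 and matplotlib 3.10.9 were used. No promoter sequence was used for Krt222, Krt33a, Krt35, Krt15, Krt19, Krt16, Krt17, Krt80, Krt87, Krt88, Krt81, Krt86, Krt83, Krt6b, Krt6a, Krt1 and Krt4.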

Additional observations from a re-analysis of the deposited data

How the results depend on the processing

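The number of keratin genes with a peak, and of distinct peaks at them, was 2 with 2, 5 or 10 kb added and in the first 7674 peaks of the list. It was 1 in the gene body alone, with most of the peak required inside the window, or without peaks at promoters of other genes, Krt10 each time, and 0 at promoters. These changes follow from the place of the Krt222 peak outside the gene and of the Krt10 peak outside the promoter. Promoters were taken at the outermost 5′ end of a gene only. The other annotated 5′ end of Krt10, which fell inside its peak, was therefore not counted. The counts of simple-epithelium, basal and hair keratins were 0 under all 7 alternatives. The share of all protein-coding genes moved from 48.1% to 45.1% (gene body alone), 50.5% (5 kb), 53.8% (10 kb), 41.6% (promoter), 33% (first 7674 peaks) and 37.4% (peaks at promoters of other genes left out). The median distance of keratin genes was 198.384 kb in the first 7674 peaks. Widening the clusters by 50 kb on each side gave 1.76 peaks per Mb on chromosome 11 and 1.27 on chromosome 15, since it took in the flanking Smarce1 and Eif4b peaks. No paired analysis was possible because the 4 ChIP samples share a single list, and for the same reason none of them could be left out. The deposited list has no column for depth or enrichment, and those of the paper's source data were not used here. An absence of a peak means that none passed the authors' threshold.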

Other observations

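The long peak-free intervals with many genes belonged mostly to other tandem families. Of the 25 intervals between neighbouring HDAC1 peaks with the most protein-coding 5′ ends, olfactory receptor genes (Olfr) were the most frequent family in 11 and vomeronasal receptor genes (Vmn) in 4. The first of them, on chromosome 2, held 236 protein-coding 5′ ends, 227 of them Olfr genes. Genes of keratinised tissue led 3 of the 25. These were the chromosome 11 keratin interval with 63 5′ ends, a chromosome 16 interval of 1542 kb with 38 5′ ends, 24 of them keratin-associated protein genes, and a chromosome 3 interval of 2937 kb with 72, in which the late cornified envelope genes (Lce, 21 genes) were the largest group. Per Mb of interval the chromosome 11 keratin interval was the densest of these 4, with 67.5 5′ ends per Mb against 42.7 in the chromosome 2 olfactory interval, 24.5 in the chromosome 3 interval and 24.6 in the chromosome 16 interval.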
